A study of Rattus norvegicus with 9 samples.

Results

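Factors that skeletal muscle is known to release, or has been proposed to release, were followed through prolonged fasting in the rat: Ostn, Fndc5, Apln, Il15, Metrnl, Il6, Fgf21, Gdf15, Bdnf and Nrg4, 10 in all. They were chosen by name, with earlier results of these data known. Of these 10 genes, 9 had a probe set annotated with their symbol alone, each with exactly 1 such probe set, among 14506 genes named on the array. Nrg4 was not analysed here. The muscle was the tibialis anterior, a limb muscle, taken from male Sprague Dawley rats. The 3 nutritional states compared had 3 rats and 3 arrays each. Fed rats had food, P2 rats were fasted into the second phase, in which body mass falls slowly and protein is spared, and P3 rats were fasted into the late phase, in which protein loss accelerates. Each array was an Affymetrix Rat Gene 1.0 ST chip hybridised with RNA of 1 whole muscle sample, so that fibres were measured together with the vessels, connective tissue, nerve and blood cells between them.

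Factors released by muscle are called myokines when the fibres make them, and they act on the muscle itself or, through the blood, on fat, liver, bone, brain and vessels. Most are made as precursors with a signal peptide, pass through the endoplasmic reticulum and are cut by proteases before or after release. Contraction, feeding and cell stress are known to change the transcripts of several of them, and a transcript level does not tell how much protein leaves the muscle.

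The deposited values are log2 intensities, and array medians lay between 5.80 and 5.90. The mean over 12 skeletal muscle markers lay between 13.04 and 13.39 on the 9 arrays, and all 12 were above the background level defined below. A mean per group was estimated from all 9 arrays by limma, the adjusted p-values are Benjamini-Hochberg values over 29215 probe sets, and a gene is called changed at an adjusted p under 0.05. The value after each ± sign is the standard error of a log2 fold change. In whole muscle, a lower level of a transcript that 1 cell type makes can come from fewer cells of that type or from less RNA per cell, and these cannot be told apart here.

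Of the 9 factors measured, 4 were called in P2 against Fed, where 12.6% of the 14506 named genes and 9.28% of all probe sets were called. In P3 against Fed 4 were called, which is 44.4%, beside 35.3% of the named genes and 29.2% of all probe sets. In P3 against P2 4 were called beside 21.8% and 16.0%. In each comparison 1 of the 4 was higher and 3 were lower. Of the named genes, 7.07%, 18.2% and 11.4% were higher and 5.57%, 17.1% and 10.4% lower in the 3 comparisons, and of all probe sets 5.13%, 15.8% and 8.50% were higher and 4.15%, 13.4% and 7.52% lower. Ostn, Fndc5 and Apln fell in both fasted groups, Il15 rose in P2, and Metrnl rose in P3. The comparisons with Fed share the same 3 fed rats. The median log2 fold change of the 9 genes was -0.08, 0.08 and 0.12 in P2 against Fed, P3 against Fed and P3 against P2, beside 0.01, 0.00 and -0.01 over all probe sets.

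A background level was set from 53 olfactory receptor genes, which muscle is not thought to use, as the 95th percentile of their mean log2 intensities, which was 5.46. Ostn, Fndc5, Apln, Il15 and Metrnl lay above it in every group. Il6, Fgf21, Gdf15 and Bdnf had group means below it in every group. This level is a description, because probe sets differ in their own background. With the 90th percentile of the same genes, 4.97, 8 of the 9 factors had a mean above the level in at least 1 group, all but Il6, and the fed mean of Bdnf, 4.89, was below it. With the 95th percentile of 160 vomeronasal and taste receptor genes, 4.57, the same 8 lay above in every group.

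**Figure D1:**
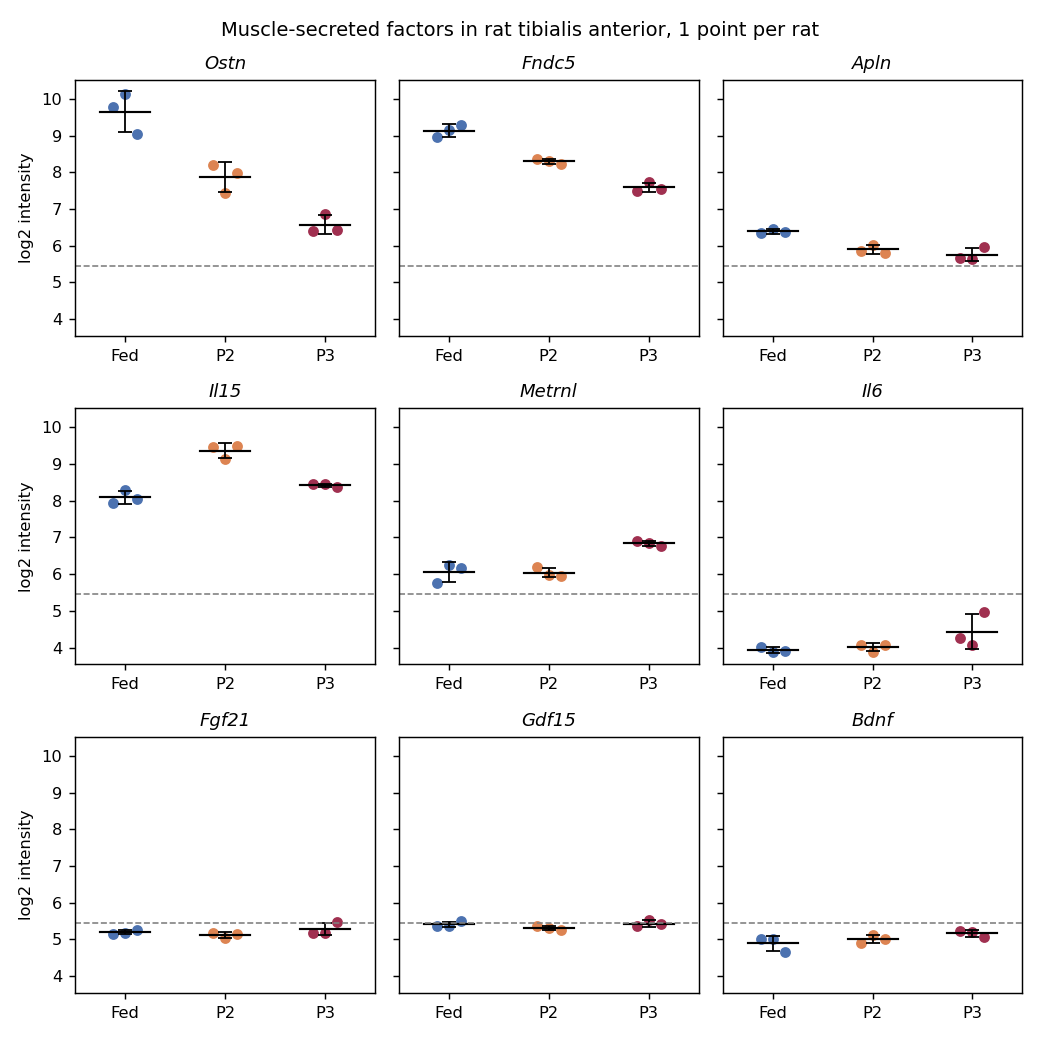
Log2 intensity of the 9 measured factors on the y axis, with 1 point per rat and the Fed, P2 and P3 groups on the x axis; the bar is the mean of 3 rats, the whiskers are the SD, and the dashed line is the background level of 5.46. Ostn and Fndc5 step down from Fed to P2 and from P2 to P3 without overlap, Il15 stands highest in P2, Metrnl stands highest in P3, and the means of Il6, Fgf21, Gdf15 and Bdnf lie under the line.

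Ostn showed the largest changes of the 9 factors. It codes for osteocrin, also called musclin, a peptide related to the natriuretic peptides that binds their clearance receptor. Its log2 intensity was 9.78, 10.13 and 9.04 in the fed rats, 8.19, 7.43 and 7.995 in the P2 rats and 6.41, 6.87 and 6.43 in the P3 rats. The lowest fed rat was above the highest P2 rat, and the lowest P2 rat was above the highest P3 rat. Ostn fell by 1.78 ± 0.29 on the log2 scale in P2 against Fed (adjusted p = 0.00622), which is 3.43-fold, and fell by 3.08 ± 0.29 in P3 against Fed (adjusted p = 5.01e-05), which is 8.44-fold. Among probe sets with a lower mean, it ranked number 27 by size in P2 against Fed and number 56 in P3 against Fed. From P2 to P3 it fell by a further 1.30 ± 0.29 (adjusted p = 0.0145). That last call was lost without P2 replicate 3, P3 replicate 1 or P3 replicate 3, at adjusted p-values of 0.0542, 0.0539 and 0.0573. Of the log2 change seen in P3, 57.8% was present in P2.

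Fndc5 also stepped down in both phases. It codes for the membrane protein whose outer part is cut off and released as irisin. Fed rats had log2 intensities of 8.96, 9.16 and 9.29, P2 rats of 8.36, 8.31 and 8.23 and P3 rats of 7.50, 7.73 and 7.54. The 3 groups did not overlap, and the spread within each was small, with an SD of 0.17, 0.07 and 0.13. Fndc5 fell by 0.84 ± 0.10 in P2 against Fed (adjusted p = 0.00153), fell by 1.55 ± 0.10 in P3 against Fed (adjusted p = 6.46e-06) and fell by 0.71 ± 0.10 in P3 against P2 (adjusted p = 0.00136). In P3 it was 2.93-fold lower than in fed rats, and 53.9% of that log2 change was present in P2. Promoter windows of Fndc5 and Apln are shown because these genes fell in both fasted groups and their windows hold the GC box, the site of the Sp/KLF family of transcription factors, spelled GGGGCGGGG and searched on both strands. No window of Ostn, which also fell, was analysed here, and from P2 to P3 Fndc5 was called and Apln was not. The windows run from 250 bases before the annotated start to 50 after it, come from RefSeq on the GRCr8 build, and are printed 5′ to 3′ on the strand of the gene with matches in capitals. That of Fndc5 is chr5:146767809-146768108 on the plus strand, that of Apln is chrX:132091197-132091496 on the minus strand, and each match lies on the strand opposite to the gene.
Fndc5: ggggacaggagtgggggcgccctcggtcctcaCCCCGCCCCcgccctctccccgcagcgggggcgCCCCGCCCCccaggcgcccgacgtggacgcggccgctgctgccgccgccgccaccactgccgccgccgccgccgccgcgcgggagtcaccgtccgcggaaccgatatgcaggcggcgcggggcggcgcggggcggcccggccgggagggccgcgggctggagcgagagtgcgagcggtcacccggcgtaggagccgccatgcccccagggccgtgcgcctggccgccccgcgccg
Apln: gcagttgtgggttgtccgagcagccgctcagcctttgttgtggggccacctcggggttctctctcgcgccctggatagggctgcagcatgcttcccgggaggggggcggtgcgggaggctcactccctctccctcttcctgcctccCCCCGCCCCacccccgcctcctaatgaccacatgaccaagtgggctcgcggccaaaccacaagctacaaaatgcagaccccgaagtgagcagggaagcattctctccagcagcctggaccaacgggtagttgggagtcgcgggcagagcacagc
The window of Fndc5 has 84.0% G and C, against a mean of 52.7% over 33469 rat promoters, and holds 2 matches, which begin at positions -218 and -185 from the start site. That of Apln holds 1, which begins at position -104. Of all promoters, 9.73% hold this motif, and so do windows of Bdnf and Gdf15, which were not called. A match of letters is a description and shows no binding.

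Apln fell by P2, and no further fall was called from P2 to P3. It codes for apelin, a peptide ligand of the G protein-coupled receptor APJ that acts on vessels, heart and muscle. On the log2 scale Apln was at 6.34, 6.46 and 6.38 in the fed rats, 5.87, 6.03 and 5.80 in the P2 rats and 5.67, 5.64 and 5.95 in the P3 rats. Every fasted rat was below every fed rat, while the P2 and P3 rats overlapped. Apln fell by 0.49 ± 0.10 in P2 against Fed (adjusted p = 0.0174) and fell by 0.64 ± 0.10 in P3 against Fed (adjusted p = 0.00122). The difference between P3 and P2 was -0.14, with a 95% confidence interval of -0.37 to 0.08. The P2 call was lost without Fed replicate 2, Fed replicate 3 or P2 replicate 3, at adjusted p-values of 0.0696, 0.0545 and 0.069. Its group means of 6.39, 5.90 and 5.75 were close to the background level.

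Il15 took another course and was highest in P2. It codes for interleukin 15, a cytokine that keeps natural killer and memory T cells alive and that muscle fibres also make. Its log2 intensity was 7.93, 8.29 and 8.06 in the fed rats, 9.48, 9.14 and 9.49 in the P2 rats and 8.45, 8.45 and 8.37 in the P3 rats. All P2 rats lay above all other rats. Il15 rose by 1.27 ± 0.12 in P2 against Fed (adjusted p = 0.00048), or 2.42-fold, and fell by 0.95 ± 0.12 from P2 to P3 (adjusted p = 0.00073). The difference between P3 and Fed was 0.33 ± 0.12, with no overlap between the rats but an adjusted p of 0.0722. It passed the threshold without Fed replicate 2 (adjusted p = 0.0336) and without P2 replicate 2 (adjusted p = 0.037). Some markers of adipocytes moved with Il15, and their part in the result was not tested. Of 5 measured, Adipoq and Cidec rose in P2 and fell from P2 to P3. Plin1, Lep and Retn were not called with all arrays. Beside these counts, 7.07% of the named genes were higher in P2 against Fed and 10.4% lower in P3 against P2. The mean log2 intensity of the list was 5.41 to 5.50 in fed, 5.94 to 6.55 in P2 and 5.36 to 5.58 in P3 rats. The fed means of Adipoq and Cidec and the P3 mean of Cidec lay below the background level. The P2 call of Cidec was lost without any one of the 3 fed rats, P2 replicate 2 or P3 replicate 2, at adjusted p-values of 0.0514 to 0.121, and the calls of both genes from P2 to P3 were lost without P3 replicate 1, at 0.0518 for Adipoq and 0.0501 for Cidec. Of 10 macrophage markers none was called in P2 against Fed, except Cd163 without P2 replicate 1 (adjusted p = 0.0215), and none of 7 lymphocyte markers was called by limma in any comparison. The shares of all named genes called were 12.6% in P2 against Fed, 35.3% in P3 against Fed and 21.8% in P3 against P2. At an unadjusted p under 0.05, 1 macrophage marker was higher in P2 against Fed, and 2 lymphocyte markers were lower in P3 against Fed. Only 2 of the 7 lymphocyte markers were above the background level in any group, so their lack of calls says little about lymphocytes.

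The promoter window of Il15 is shown because it holds a partial direct repeat of the kind bound by PPAR receptors, the fatty acid sensors that fasting is known to engage. It lies at chr19:42544456-42544755 on the plus strand, from RefSeq on GRCr8, and the capitals mark the motif, which is AGGTCA, then any base, then AGG, searched on both strands.
Il15: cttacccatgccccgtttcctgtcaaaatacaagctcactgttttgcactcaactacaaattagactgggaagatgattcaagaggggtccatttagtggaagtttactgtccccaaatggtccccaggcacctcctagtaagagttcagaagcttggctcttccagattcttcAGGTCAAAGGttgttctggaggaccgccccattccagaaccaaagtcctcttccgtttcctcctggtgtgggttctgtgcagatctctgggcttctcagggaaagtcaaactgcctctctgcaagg
The match begins at position -76 from the annotated start. The partial motif occurs in 0.717% of all promoters, and the complete repeat, AGGTCA, any base and AGGTCA again, in 0.0538% and in no window of these factors. A window of Gdf15, a gene that was not called, also holds the partial motif. Ppara, which codes for the receptor PPARalpha, had mean log2 intensities of 7.61, 7.14 and 6.97 in Fed, P2 and P3. It fell by 0.64 ± 0.15 in P3 against Fed (adjusted p = 0.0121), and its difference of -0.48 in P2 against Fed, where Il15 rose, had an adjusted p of 0.1, and of 0.0333 without P2 replicate 2.

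Metrnl rose in the late phase. It codes for meteorin-like, a secreted protein linked to exercise, cold and immune cells in fat and muscle. Its log2 intensity was 5.75, 6.26 and 6.18 in the fed rats, 6.19, 5.98 and 5.96 in the P2 rats and 6.90, 6.85 and 6.76 in the P3 rats. The P3 rats were above all others, and the fed and P2 rats overlapped. Metrnl rose by 0.77 ± 0.13 in P3 against Fed (adjusted p = 0.00198), or 1.71-fold, and rose by 0.80 ± 0.13 in P3 against P2 (adjusted p = 0.00328). In P2 against Fed the difference was -0.03, with a 95% confidence interval of -0.33 to 0.28. Of the 10 macrophage markers, Cd163 alone was called in P3 against Fed, higher by 2.64-fold (adjusted p = 0.0108). The median log2 fold change of the 10 was -0.20 there, and the mean of the list was 6.52 to 7.24 in fed and 6.41 to 7.03 in P3 rats. The part of macrophages in the rise of Metrnl was not tested. The promoter of Metrnl held no match to the 7 motifs searched, which says only that those letters are not in its window.

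**Figure D2:**
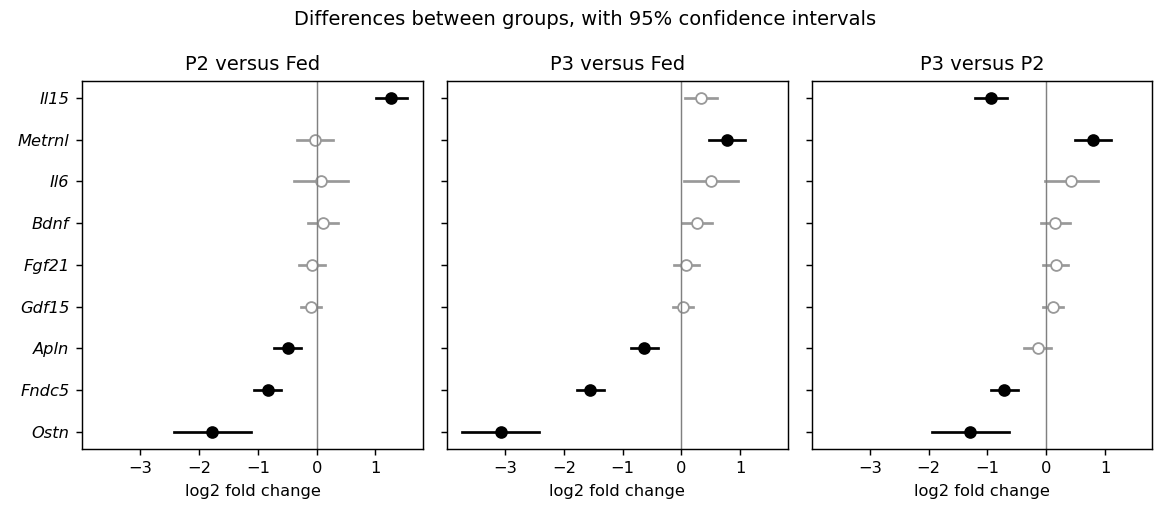
Log2 fold change on the x axis, with its 95% confidence interval as a line, for the 9 factors on the y axis in P2 against Fed, P3 against Fed and P3 against P2; filled points are called at an adjusted p under 0.05 and open points are not. Ostn reaches -3.08 in P3 against Fed, Il15 reaches 1.27 in P2 against Fed, and the intervals of Fgf21 and Gdf15 include 0 in each comparison. The intervals of Il15, Il6 and Bdnf exclude 0 in P3 against Fed, where they are not called.

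Il6, Fgf21, Gdf15 and Bdnf had no call in any comparison, and their group means lay below the background level. By limma at an unadjusted p under 0.05, 4 of the factors were higher in P3 against Fed, namely Metrnl, Il15, Il6 and Bdnf. Il6 codes for interleukin 6, the cytokine that contracting muscle is known to release. Its log2 intensity was 4.02, 3.87 and 3.92 in the fed rats, 4.07, 3.88 and 4.07 in the P2 rats and 4.25, 4.07 and 4.98 in the P3 rats. P3 replicate 3 stood apart from the other 8 rats. The difference between P3 and Fed was 0.50 ± 0.20 (adjusted p = 0.103), and 0.22 without P3 replicate 3, with an adjusted p of 0.157. Without P3 replicate 2 the difference was 0.68 and passed the threshold (adjusted p = 0.0346).

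Fgf21 codes for the hormone FGF21, which the liver and stressed muscle release. Its log2 intensity lay between 5.14 and 5.27 in fed, 5.03 and 5.18 in P2 and 5.18 and 5.47 in P3 rats, and the fed rats overlapped with both fasted groups. The difference was -0.08 in P2 against Fed, with a 95% confidence interval of -0.29 to 0.13, and 0.08 in P3 against Fed, with an interval of -0.13 to 0.30. Its promoter window is shown because it holds the C/EBP-ATF element, the site type through which the stress factor ATF4 acts, spelled TGATGCAAT, and because Atf4 rose in these muscles. The window is chr1:105221327-105221626 on the minus strand, from RefSeq on GRCr8, and the match in capitals lies on the strand opposite to the gene, beginning at position -144 from the start site.
Fgf21: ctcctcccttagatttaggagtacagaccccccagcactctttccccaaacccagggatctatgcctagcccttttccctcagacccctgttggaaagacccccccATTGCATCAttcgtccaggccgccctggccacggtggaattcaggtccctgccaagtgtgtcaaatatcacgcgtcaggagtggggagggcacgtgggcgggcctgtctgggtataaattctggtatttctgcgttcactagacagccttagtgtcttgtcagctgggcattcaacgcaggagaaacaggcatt
Of all promoters, 0.188% hold this element. Atf4 had a log2 fold change of 0.53 ± 0.09 in P2 against Fed (adjusted p = 0.00805) and of 1.04 ± 0.09 in P3 against Fed (adjusted p = 3.33e-05).

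Gdf15 codes for a stress hormone that acts on the hindbrain. Its log2 intensity lay between 5.37 and 5.50 in fed, 5.25 and 5.37 in P2 and 5.36 and 5.53 in P3 rats. The difference was -0.10 in P2 against Fed, with a 95% confidence interval of -0.27 to 0.07, and 0.02 in P3 against Fed, with an interval of -0.15 to 0.19. Bdnf codes for the neurotrophin BDNF, and its log2 intensity lay between 4.66 and 5.02 in fed, 4.89 and 5.12 in P2 and 5.05 and 5.22 in P3 rats. All P3 rats were above all fed rats for Bdnf, by 0.27 ± 0.11 on average, but the adjusted p was 0.109.

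The receptors of the factors were followed next, since muscle is also a target of several of them. Of 21 receptor chains listed, 18 were measured. In P2 against Fed 2 rose and 3 fell, in P3 against Fed 3 rose and 5 fell, and in P3 against P2 3 rose and 2 fell. Without Fed replicate 1, or without P2 replicate 3, 3 were called in P2 against Fed. The shares of named genes called in these comparisons were 12.6%, 35.3% and 21.8%. The median log2 fold change of the 18 was -0.04, -0.09 and -0.03.

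Npr3, the natriuretic peptide clearance receptor that osteocrin binds, fell beside Ostn. Npr3 had a log2 intensity of 9.30, 9.39 and 9.70 in the fed rats, 7.73, 7.60 and 8.42 in the P2 rats and 6.32, 6.31 and 6.19 in the P3 rats, with no overlap between the groups. Npr3 fell by 1.55 ± 0.20 in P2 against Fed (adjusted p = 0.0021), fell by 3.19 ± 0.20 in P3 against Fed (adjusted p = 5.11e-06) and fell by 1.64 ± 0.20 in P3 against P2 (adjusted p = 0.000607). In P3 it was 9.12-fold lower than in fed rats. Npr2, the signalling receptor for C-type natriuretic peptide, was not called, with differences of 0.15 in P2 and -0.19 in P3 against Fed.

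Aplnr, the apelin receptor, which vessels carry, was 7.98, 7.82 and 7.48 in the fed rats, 7.25 in each of the P2 rats and 6.89, 6.55 and 6.58 in the P3 rats. The groups did not overlap. Aplnr fell by 1.09 ± 0.14 in P3 against Fed (adjusted p = 0.000294) and fell by 0.58 ± 0.14 in P3 against P2 (adjusted p = 0.019), while the difference of -0.51 in P2 against Fed had an adjusted p of 0.051. The P2 difference passed the threshold without Fed replicate 3 (adjusted p = 0.0203) or P3 replicate 1 (adjusted p = 0.0405). The call between P3 and P2 was lost without P2 replicate 3, P3 replicate 2 or P3 replicate 3, at adjusted p-values of 0.0572, 0.071 and 0.0732. No endothelial marker of 7 was called lower by limma in any comparison, and at an unadjusted p under 0.05 1 was lower in each. Of all named genes, 5.57% were called lower in P2 against Fed, 17.1% in P3 against Fed and 10.4% in P3 against P2. With only 7 markers, a lack of lower calls is not far from these shares. The median log2 fold change of the 7 was 0.07 in P2 against Fed, -0.11 in P3 against Fed and -0.16 in P3 against P2. Kdr had a difference of -0.81 in P2 against Fed (adjusted p = 0.0817) and was called lower without P2 replicate 2 (adjusted p = 0.0257). Tie1 had a difference of -0.44 in P3 against Fed (adjusted p = 0.069) and was called lower without P3 replicate 1 (adjusted p = 0.0339). Pecam1 rose by 0.91 in P3 against Fed, and Cldn5 rose by 0.42 in P2 against Fed, a call lost without Fed replicate 1 or 2 or P2 replicate 1 or 2, at adjusted p-values of 0.0568 to 0.101. The part of endothelial cells in the fall of Aplnr was not tested.

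Both chains of the interleukin 6 receptor were higher by P3, while Il6 itself stayed below the background level. Il6r, the chain that binds the cytokine, was 7.11, 7.23 and 7.50 in the fed rats, 8.87, 9.30 and 8.88 in the P2 rats and 10.15, 9.98 and 10.11 in the P3 rats. The groups did not overlap. Il6r rose by 1.74 ± 0.14 in P2 against Fed (adjusted p = 0.000244) and rose by 2.80 ± 0.14 in P3 against Fed (adjusted p = 1.53e-06), which is 6.98-fold. Il6st, the signalling chain gp130 that several cytokines share, rose by 1.62 ± 0.10 in P3 against Fed (adjusted p = 5.17e-06) and rose by 1.24 ± 0.10 in P3 against P2 (adjusted p = 7.04e-05). In P2 against Fed its difference of 0.37 had an adjusted p of 0.0546, and of 0.0052 without P2 replicate 1.

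For interleukin 15, Il2rg, the common gamma chain, was 5.79, 5.67 and 5.74 in the fed rats, 5.13, 5.31 and 4.95 in the P2 rats and 5.31, 4.94 and 5.11 in the P3 rats. Every fasted rat was below every fed rat, and the fasted groups overlapped, below the background level of 5.46. Since the fasted levels lay under that background, the sizes that follow are imprecise. Il2rg fell by 0.60 ± 0.12 in P2 (adjusted p = 0.0141) and fell by 0.61 ± 0.12 in P3 against Fed (adjusted p = 0.00361). The P2 call was lost without Fed replicate 1, Fed replicate 3 or P2 replicate 3, at adjusted p-values of 0.0525, 0.0502 and 0.0514. Il2rb, the chain that interleukin 15 shares with interleukin 2, was not called, with a difference of -0.06 in P3 against Fed and a 95% confidence interval of -0.19 to 0.08. Its means of 5.44, 5.44 and 5.38 in Fed, P2 and P3 lay below the background level, so the narrow interval says little about the transcript.

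Among the other receptors, Sort1, which codes for sortilin, a receptor that sorts BDNF and other cargo, rose by 0.58 ± 0.12 in P2 against Fed (adjusted p = 0.0185), by 1.17 ± 0.12 in P3 against Fed (adjusted p = 8.85e-05) and rose by 0.59 ± 0.12 in P3 against P2 (adjusted p = 0.00918). Its P2 call was lost without Fed replicate 1, Fed replicate 2 or P2 replicate 3, at adjusted p-values of 0.0672, 0.0627 and 0.0523. Ret, the signalling partner of the GDF15 receptor, fell by 0.66 ± 0.11 in P2 against Fed (adjusted p = 0.00671) and fell by 0.57 ± 0.11 in P3 against Fed (adjusted p = 0.00351). Gfral, the receptor itself, known from the hindbrain, had group means of 3.28, 3.19 and 3.19, far under the background level. Ngfr, the low-affinity neurotrophin receptor, fell by 0.32 ± 0.09 in P3 against Fed (adjusted p = 0.0264). That call was lost without any one of the 3 fed rats, P3 replicate 1 or P3 replicate 2, at adjusted p-values of 0.057, 0.0898, 0.0526, 0.0704 and 0.0865. Fgfr1, a receptor for FGF21, Itgb5, a chain of the integrin proposed to bind irisin, Ntrk2, the BDNF receptor, and Kit, proposed as a receptor of meteorin-like, were not called in any comparison. Without P3 replicate 1, Fgfr1 passed the threshold in P3 against Fed (adjusted p = 0.0412), and without P2 replicate 1, Itgb5 did in P2 against Fed (adjusted p = 0.0175).

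**Figure D3:**
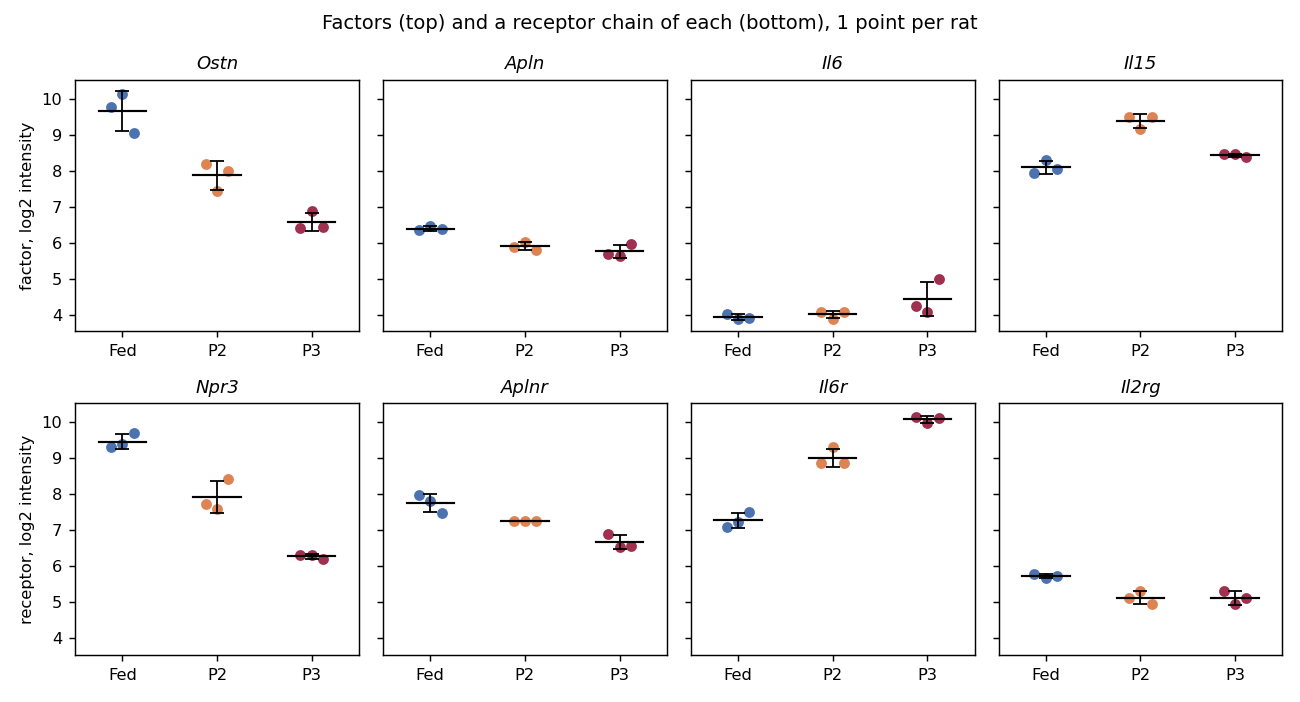
Log2 intensity on the y axis of Ostn, Apln, Il6 and Il15 in the top row and of a receptor chain of each, Npr3, Aplnr, Il6r and Il2rg, in the bottom row, with 1 point per rat and the mean and SD of 3 rats for Fed, P2 and P3 on the x axis. Ostn and Npr3 both step down, whereas Il6r rises from a mean of 7.28 to 10.08 while the mean of Il6 goes from 3.94 to 4.43.

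The 9 factors were set beside other secreted proteins that muscle or its connective tissue makes. Of 57 listed, 50 were measured. In P2 against Fed 2 rose and 7 fell, in P3 against Fed 1 rose and 21 fell, and in P3 against P2 limma called none higher, also 0 at an unadjusted p under 0.05, and 12 fell. Without Fed replicate 3, 5 were called in P2 against Fed. With all arrays, 18%, 44% and 24% of the 50 were called in the 3 comparisons, beside 12.6%, 35.3% and 21.8% of all named genes. The median log2 fold change of the 50 was -0.05, -0.23 and -0.17. In the last comparison the largest positive difference among the 50 was 0.12.

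Angptl4, a secreted inhibitor of lipoprotein lipase, was high in P2, as Il15 was. On the log2 scale it was at 5.15, 5.16 and 4.997 in the fed rats, 7.50, 8.31 and 8.20 in the P2 rats and 5.28, 5.29 and 5.34 in the P3 rats. It rose by 2.90 ± 0.18 in P2 against Fed (adjusted p = 8.17e-05) and fell by 2.70 ± 0.18 from P2 to P3 (adjusted p = 2.82e-05). Its fed and P3 means, 5.10 and 5.30, lay below the background level of 5.46, where a difference in log2 intensity can understate the change in transcript, so the sizes are imprecise. Lgals3, which codes for galectin 3, rose by 1.04 ± 0.15 in P2 and rose by 1.09 ± 0.15 in P3 against Fed (adjusted p = 0.0034 and 0.000512).

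Vegfa, Igfbp5, Igf1 and Mstn were among the genes that fell. Vegfa, which drives vessel growth, was 10.46, 10.44 and 10.44 in the fed rats, 9.18, 10.02 and 9.65 in the P2 rats and 7.21, 6.78 and 6.91 in the P3 rats. It fell by 3.48 ± 0.19 in P3 against Fed (adjusted p = 2.62e-06), or 11.1-fold, and fell by 0.83 ± 0.19 in P2 against Fed (adjusted p = 0.0295). Without Fed replicate 1, 2 or 3, P2 replicate 3 or P3 replicate 3, the P2 call was lost, at adjusted p-values of 0.0512 to 0.0926. Igfbp5, which binds insulin-like growth factors, fell by 1.66 ± 0.12 in P2 and fell by 2.54 ± 0.12 in P3 against Fed (adjusted p = 0.000153 and 1.14e-06).

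Igf1, an insulin-like growth factor, was 2.11-fold lower in P2 and 2.15-fold lower in P3 than in fed rats (adjusted p = 0.0165 and 0.00421), and without Fed replicate 1 or Fed replicate 3 its P2 call was lost, at adjusted p-values of 0.0556 and 0.0644. Mstn codes for myostatin, which restrains muscle growth. It fell by 2.49 ± 0.43 in P3 against Fed (adjusted p = 0.00192) and fell by 3.23 ± 0.43 in P3 against P2 (adjusted p = 0.000919), and its difference of 0.74 ± 0.43 in P2 against Fed was not called (adjusted p = 0.365).

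The genes that fell also included Cilp, Postn and Serpinf1. Cilp, a cartilage and matrix protein, fell by 1.27 ± 0.15 in P2 against Fed (adjusted p = 0.00121). Postn, which codes for periostin of the connective tissue, fell by 3.23 ± 0.41 in P3 against Fed (adjusted p = 0.000328). Serpinf1, which codes for pigment epithelium-derived factor, fell by 1.92 ± 0.21 in P3 against P2 (adjusted p = 0.00031). Some markers of connective tissue cells moved with these genes. Of 8 fibro-adipogenic markers 1 fell in P2 against Fed and 5 fell in P3 against Fed, the latter by 4.18 for Col1a1 and 3.81 for Col3a1, and the mean of the list was 9.07 to 9.28 in fed, 8.07 to 8.97 in P2 and 7.03 to 8.06 in P3 rats. Without P2 replicate 2, or without P3 replicate 1, Col1a1 was also called lower in P2 against Fed (adjusted p = 0.0341 and 0.0283). Other markers of this list moved less. Pdgfra had means of 7.92, 7.89 and 7.53 in Fed, P2 and P3, Pdgfrb of 8.52, 8.67 and 8.58, and Ly6e of 8.39, 8.76 and 8.02. Of 6 smooth muscle and pericyte markers 5 fell in P3 against Fed, with list means of 8.80 to 9.11 in fed and 8.06 to 8.52 in P3 rats. Without Fed replicate 1, or without Fed replicate 3, 3 were called, since Tagln (adjusted p = 0.116 and 0.114) and Cnn1 (adjusted p = 0.0634 and 0.0577) were lost. Tagln was also lost without P2 replicate 3, P3 replicate 1 or P3 replicate 2, at adjusted p-values of 0.0508, 0.0624 and 0.119. Of 5 satellite cell markers 3 fell in P3 against Fed, Myod1 by 3.17 ± 0.32, Chodl by 1.58 and Cdh15 by 0.54. The list means were 6.87 to 7.18 in fed and 5.76 to 5.89 in P3 rats. The Cdh15 call was lost without Fed replicate 1 or 2 or P3 replicate 1 or 3, at adjusted p-values of 0.0519 to 0.0719. Myf5 and Vcam1 were not called there with all arrays. Of the 12 skeletal muscle markers, Pvalb, Tnni2 and Myl11 fell in P3 against Fed, by 1.87, 0.72 and 0.33. Of 4 Schwann and nerve markers limma called none, with 1 lower at an unadjusted p under 0.05 in P3 against Fed, and Sox10 called lower there without P3 replicate 3 (adjusted p = 0.0264). The part of these cells in the changes of the factors was not tested. Beside these counts of markers, 5.57% of all named genes were called lower in P2 against Fed and 17.1% in P3 against Fed.

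**Figure D4:**
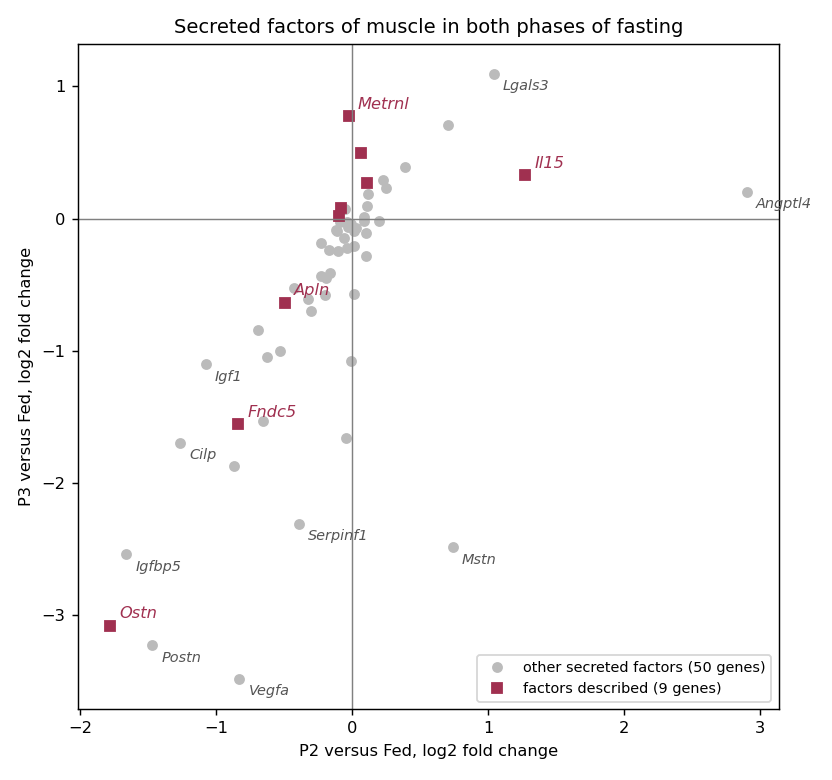
Log2 fold change in P2 against Fed on the x axis and in P3 against Fed on the y axis, which share the fed rats, for the 9 factors (squares) and 50 other secreted factors (circles). Ostn lies at the lower left near Postn and Igfbp5, and Il15 and Angptl4 lie to the right, with P2 changes of 1.27 and 2.90.

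Regulators and stress-response genes linked to these factors were read from a list of 24, of which 22 were measured. In P2 against Fed 5 rose and 1 fell, in P3 against Fed 7 rose and 6 fell, and in P3 against P2 5 rose and 4 fell. These are 27.3%, 59.1% and 40.9% of the 22, beside 12.6%, 35.3% and 21.8% of all named genes. Foxo1 and Foxo3, transcription factors held back by insulin, rose by 1.73 ± 0.15 and 1.34 ± 0.12 in P2 against Fed (adjusted p = 0.000284 and 0.000397) and rose by 2.83 ± 0.15 and 2.40 ± 0.12 in P3 against Fed (adjusted p = 1.69e-06 and 1.51e-06). Foxo1 is known to repress Ostn. The FOXO site searched, TGTTTAC, occurs in 3.78% of promoters and in none of the windows of the 8 factors searched. Ostn was not among these 8, so its promoter was not searched for the site.

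Ppargc1a codes for PGC-1alpha, the coactivator through which Fndc5 is known to be induced by exercise. It fell by 1.91 ± 0.14 in P3 against Fed (adjusted p = 1.15e-05), and its difference of -0.39 in P2 against Fed had an adjusted p of 0.13, and of 0.0215 without P3 replicate 2. Its partner Esrra fell by 1.41 ± 0.11 in P3 against Fed (adjusted p = 1.81e-05), and its relative Ppargc1b by 1.22 ± 0.10 in P2 and fell by 2.55 ± 0.10 in P3 against Fed (adjusted p = 0.000224 and 3.91e-07).

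The stress genes of the same list did not move one way. Besides Atf4, Ppp1r15a, which codes for the phosphatase subunit that ends the stress response, rose by 1.04 ± 0.14 in P2 and rose by 2.77 ± 0.14 in P3 against Fed (adjusted p = 0.00206 and 1.39e-06). Ddit3, which codes for CHOP, fell by 0.89 ± 0.21 in P3 against Fed (adjusted p = 0.0108). Cebpb, a transcription factor of the acute phase, rose by 0.90 ± 0.09 in P2 and rose by 1.36 ± 0.09 in P3 against Fed (adjusted p = 0.000572 and 6.14e-06).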

How the data were processed

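The arrays were processed by the authors in Affymetrix GCOS 1.4 and Expression Console 1.1. Robust multi-array averaging, with a sketch quantile normalization and a median polish, gave the deposited log2 intensities, which were used unchanged. A median polish can return exactly equal values on several arrays. Of 29215 probe sets, 15310 carry 1 symbol in the annotation of the platform, 323 several and 13582 none. A current rat gene was found for 15279 of the first kind. Where several shared a symbol, the brightest on average was used.

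R 4.3.3 with limma 3.58.1 fitted all 9 arrays (lmFit, eBayes with defaults, 2.87 prior degrees of freedom). The fit was tested on simulated data. Values are named for all factors, for up to 4 called genes of each list per comparison and direction, ordered by the size of the change, and for the 3 genes with the most similar profile to a called factor. Ngfr, Il2rb, Npr2, Fgfr1, Itgb5, Ntrk2, Kit and Gfral were named after their values were seen, to account for the receptors, as were Ppara and the markers Kdr, Tie1, Sox10, Pdgfra and Pdgfrb. The members, lists and tests were chosen with earlier results of these data known. Leaving out single arrays for the genes of the lists was added after the data were seen. Each rat gave 1 array, and the 3 rats per group limit the precision. Alternatives covered normalization, centring, a filter at a mean log2 value of 5, the probe sets tested, moderation, array weights, the groups in the fit, the replicate number as a block, averaging the probe sets of a gene, single arrays left out, and the methods' test, a 1-way analysis of variance with a Tukey test at p under 0.001. Promoter windows came from RefSeq (GRCr8) for 8 of the 10 factors, and 7 motifs were searched in them with Python 3.11.15, without Ostn and Nrg4. Figures used matplotlib 3.10.9.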

Additional observations from a re-analysis of the deposited data

Results flagged for a closer look

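The change from P2 to P3, which is the difference between both phases of fasting under the same contrast with Fed, passed limma's test for 4 factors. Its log2 value was -0.95 for Il15 (adjusted p = 0.00073), -0.71 for Fndc5 (adjusted p = 0.00136), 0.80 for Metrnl (adjusted p = 0.00328) and -1.30 for Ostn (adjusted p = 0.0145). The 3 rats of P3 lay all below the 3 rats of P2 for Il15, Fndc5 and Ostn and all above them for Metrnl. For Ostn the adjusted p lay between 0.00617 and 0.0573 as single arrays were left out.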

How the results depend on the processing

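No call on the 9 factors was reversed under any alternative run. Of the 12 calls, 10 were made under every alternative other than the methods' test, and the P2 call of Apln and the P3 against P2 call of Ostn were not. Averaging the probe sets of a gene could not change the values of a factor, since each had 1 probe set. The methods' test at p under 0.001, an unmoderated test with a stricter threshold, called 2, 2 and 1 of the 9 factors in P2 against Fed, P3 against Fed and P3 against P2, 1, 4 and 1 of the receptors and 3, 7 and 4 of the other secreted factors. Array weights gave 8 receptors and 15 other secreted factors in P2 against Fed, and called Il6 in P3 against Fed (adjusted p = 0.0432); the cause was not tested. With single arrays left out, 3 to 4, 4 to 5 and 3 to 4 factors were called, with 3 to 7, 7 to 8 and 4 to 6 receptors and 5 to 11, 20 to 24 and 8 to 13 other secreted factors. The filter at a mean of 5 removed Il6. The deviations of arrays with the same replicate number correlated between -0.243 and 0.123, and those with different numbers between -0.161 and 0.305. With 3 arrays per group this cannot decide whether the numbers pair the rats. The replicate block left 4 factors called in each comparison. It called 5, 7 and 5 receptors and 7, 23 and 11 other secreted factors, and over all probe sets 1983, 7930 and 4035 where the fit without it called 2711, 8538 and 4680. For Il6, Fgf21, Gdf15 and Bdnf, the low signal limits what these arrays can show.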

Other observations

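The machinery that carries secreted proteins out of the cell was read from a list of 22 genes, of which 20 were measured, all above the background level. In P2 against Fed 2 rose and 4 fell, in P3 against Fed 5 rose and 5 fell, and in P3 against P2 4 rose and 3 fell, with median log2 fold changes of -0.03, -0.01 and 0.06. These are 30%, 50% and 35% of the 20, beside 12.6%, 35.3% and 21.8% of all named genes. The 6 calls in P2 against Fed became 3 without Fed replicate 1 (Furin, Ssr2 and Sec24d lost), without Fed replicate 3 (Furin, Sec24d and Sar1b lost) or without P2 replicate 3 (Ssr2, Sec24d and Sar1b lost). The 10 calls in P3 against Fed became 7 without Fed replicate 3, with Srp9, Srp54a and Sar1b lost. In P3 against P2 the 7 calls became 5 without P3 replicate 2, with Sec62 and Ssr1 lost. Furin, the protease that cuts many precursors at basic residues, rose by 1.54 ± 0.14 in P3 against Fed (adjusted p = 4.58e-05) and rose by 0.88 ± 0.14 in P3 against P2 (adjusted p = 0.00283). It rose by 0.66 ± 0.14 in P2 against Fed (adjusted p = 0.0215), a call that was lost without Fed replicate 1, 2 or 3, at adjusted p-values of 0.0758, 0.0553 and 0.0644. Within the channel that takes proteins into the endoplasmic reticulum the genes differed in direction. Sec61b, a subunit of the channel, fell by 0.82 ± 0.08 in P3 against Fed (adjusted p = 5.01e-05), and Ssr1, of the associated TRAP complex, by 0.79 ± 0.06 (adjusted p = 2.21e-05). Sec62, an accessory protein of the channel, rose by 0.56 ± 0.10 (adjusted p = 0.00209). Of the catalytic subunits of signal peptidase, Sec11a rose by 0.56 ± 0.08 (adjusted p = 0.000663) and Sec11c fell by 0.73 ± 0.14 (adjusted p = 0.00291).

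The genes whose profile over the 9 arrays was most like that of a called factor were taken from 8498 genes by Pearson's r, as a description, since all arrays share the same 3 states. For Ostn these were Emc9 (r = 0.994), Bcl2l13 (r = 0.986) and Mrps21 (r = 0.983). For Fndc5 they were Snrpb (r = 0.996), Smpd1 (r = 0.995) and Psat1 (r = 0.995). For Apln they were Tbrg4 (r = 0.984), Eno1 (r = 0.972) and Myl2 (r = 0.970). For Il15 they were Mc5r (r = 0.967), Nxn (r = 0.961) and Dusp7 (r = 0.956), and for Metrnl they were Pak1ip1 (r = 0.977), Tubb4b (r = 0.965) and Ift122 (r = 0.962).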
